A study of Mus musculus with 12 samples.

Results

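The CC chemokines that neutrophils are reported to make or to respond with were followed here as 9 genes, *Ccl2*, *Ccl3*, *Ccl4*, *Ccl5*, *Ccl6*, *Ccl7*, *Ccl9*, *Ccl17* and *Ccl22*, which were listed by name, with no threshold on their values. Each was read from the transcript cluster (the set of array probes that reads the transcripts of a gene) whose platform symbol is the gene, and all 9 had exactly 1 such cluster among the 28944 tested. The cells were Ly6G+ neutrophils isolated from mouse bone marrow by hypotonic lysis and a Percoll gradient, and adherent and nonadherent cells were pooled before RNA extraction. The study's methods describe sorting on Ly6G for the check of neutrophil-specific deletion, and not for the expression measurements. The 4 groups were *Card9*-/- cells on immune complexes (IC), *Card9*-/- cells on the control surface, wild-type cells on IC and wild-type cells on the control surface, each with 3 arrays and 4 h at 37 °C, after which 150 ng of RNA were labelled for an Affymetrix mouse gene array. *Card9*-/- mice were homozygous for the conventional *Card9* tm1Jrld knockout, which removes CARD9 from all cells and not only from neutrophils, and the wild-type mice were C57BL/6; the study used mice of both sexes at 2 to 6 months of age. The IC surface carried human serum albumin (HSA) with anti-HSA IgG, and the control surface carried HSA alone. Each of the 3 experiments held all 4 groups. The study's methods name intact mice and bone marrow chimeras as sources of neutrophils without saying which was used for the arrays. The labels number the experiments but do not name the animals, so that p values measure the spread among these experiments.

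CC chemokines are small secreted proteins with adjacent cysteines near the amino terminus, and they guide leukocytes by binding G-protein-coupled CCR receptors. Activated neutrophils release CCL3 and CCL4, which draw monocytes, T cells and dendritic cells to inflamed tissue, and mouse myeloid cells also make CCL6 and CCL9 without stimulation. CARD9 is an adaptor that links Syk-coupled receptors to NF-κB, a transcription factor that acts on many chemokine genes.

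In the mouse annotation of RefSeq, *Ccl5*, *Ccl9*, *Ccl6*, *Ccl3* and *Ccl4* are consecutive genes on chromosome 11, *Ccl2* and *Ccl7* are neighbours elsewhere on the same chromosome, and *Ccl22* and *Ccl17* lie on chromosome 8 with only *Cx3cl1* between them. The annotated spans of *Ccl3* and *Ccl4* overlap. RefSeq promoter windows were at hand for 5 of the 9 genes (*Ccl3*, *Ccl6*, *Ccl9*, *Ccl17* and *Ccl22*). The 250 bases before the annotated start of the 3 that are neighbours on chromosome 11 (build GRCm38.p6, minus strand, written 5′ to 3′ in the direction of transcription) are shown because these genes sit side by side. Their profiles over the arrays differed, and any link between the letters and the profiles was not tested. The windows are chr11:83649379-83649628 for *Ccl3*, chr11:83593088-83593337 for *Ccl6* and chr11:83578637-83578886 for *Ccl9*, and capitals mark matches to the motifs searched.
Ccl3: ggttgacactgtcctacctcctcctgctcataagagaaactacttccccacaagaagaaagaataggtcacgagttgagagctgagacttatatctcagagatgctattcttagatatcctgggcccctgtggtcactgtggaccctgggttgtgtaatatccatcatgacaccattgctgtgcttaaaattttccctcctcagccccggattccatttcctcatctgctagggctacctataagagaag
Ccl6: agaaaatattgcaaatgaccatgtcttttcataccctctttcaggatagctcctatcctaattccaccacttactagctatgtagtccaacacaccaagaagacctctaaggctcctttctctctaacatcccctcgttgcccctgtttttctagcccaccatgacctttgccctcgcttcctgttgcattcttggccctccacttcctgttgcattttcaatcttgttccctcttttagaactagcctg
Ccl9: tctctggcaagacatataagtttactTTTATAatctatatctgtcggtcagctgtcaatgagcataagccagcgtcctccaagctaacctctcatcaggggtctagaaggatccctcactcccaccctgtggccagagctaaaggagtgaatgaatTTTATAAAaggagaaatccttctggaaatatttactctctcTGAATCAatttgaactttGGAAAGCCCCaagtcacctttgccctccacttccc

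Both strands were searched for the NF-κB consensus, the AP-1 motif TGANTCA, the TATA box TATAAA and CCAAT. Of the 5 windows, *Ccl9* alone held any match. Its NF-κB match began 35 bases and its AP-1 match 53 bases before the start, and its 3 TATA matches began 224, 94 and 92 bases before the start, of which the last pair overlap on opposite strands. Over the 32851 RefSeq promoters of the same length, the NF-κB consensus stood in 7.25%, the AP-1 motif in 6.75%, TATAAA in 12.4% and CCAAT in 33.8%. A match describes letters in this window, and no factor was measured.

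The arrays were checked before the chemokines were read. *Card9* had log2 signals of 6.42, 6.01 and 5.56 in *Card9*-/- cells on IC and 6.39, 5.94 and 5.70 in *Card9*-/- cells on the control surface in experiments 1, 2 and 3, against 8.08, 8.21 and 8.50 in wild-type cells on IC and 8.42, 8.43 and 8.75 in wild-type cells on the control surface. The genotypes did not overlap on either surface, with log2 differences of -2.27 on IC (adjusted p = 0.0049, limma) and -2.52 on the control surface (adjusted p = 0.0023). The 11 neutrophil markers had a mean signal at the 98.9th to 99.8th percentile of all clusters, and their average was 12.19 to 12.48 on the 12 arrays. Markers of other cells were present too: the average of the 8 measured monocyte and macrophage markers was 7.11 to 7.56 in *Card9*-/- cells on IC, 7.04 to 7.60 in *Card9*-/- cells on the control surface, 6.90 to 7.85 in wild-type cells on IC and 6.96 to 7.79 in wild-type cells on the control surface. The average of the 5 measured B cell markers was 7.99, 5.07 and 9.10 in *Card9*-/- cells on IC and 7.86, 5.07 and 8.09 in *Card9*-/- cells on the control surface, against 6.45, 5.08 and 8.51 in wild-type cells on IC and 6.69, 5.06 and 7.83 in wild-type cells on the control surface, so that it differed between experiments and, in experiments 1 and 3, was higher in *Card9*-/- cells. Its part in the values below was not tested. In such bulk samples, fewer cells of a type and less RNA per cell cannot be told apart. The median signal of an array was 5.27 to 5.39 in experiment 3 and 5.70 to 5.93 in the other experiments.

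Signals are given on the log2 scale as deposited, and since probes differ in affinity, the signal of a gene is placed among all clusters and not set against that of another gene as an amount. *Ccl3* had a mean signal at the 99.6th percentile, *Ccl6* at the 98.3rd, *Ccl5* at the 92.6th, *Ccl4* at the 85.0th and *Ccl9* at the 80.6th. The monocyte attractants *Ccl2* and *Ccl7* were at the 59.5th and 53.0th percentile, and *Ccl17* and *Ccl22*, whose products bind CCR4, at the 53.8th and 32.4th. Over the 12 arrays the signal of *Ccl4* ranged from 5.92 to 10.55, a range of 4.63, while those of *Ccl6* and *Ccl9* spanned 0.87 and 1.01.

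**Figure D1:**
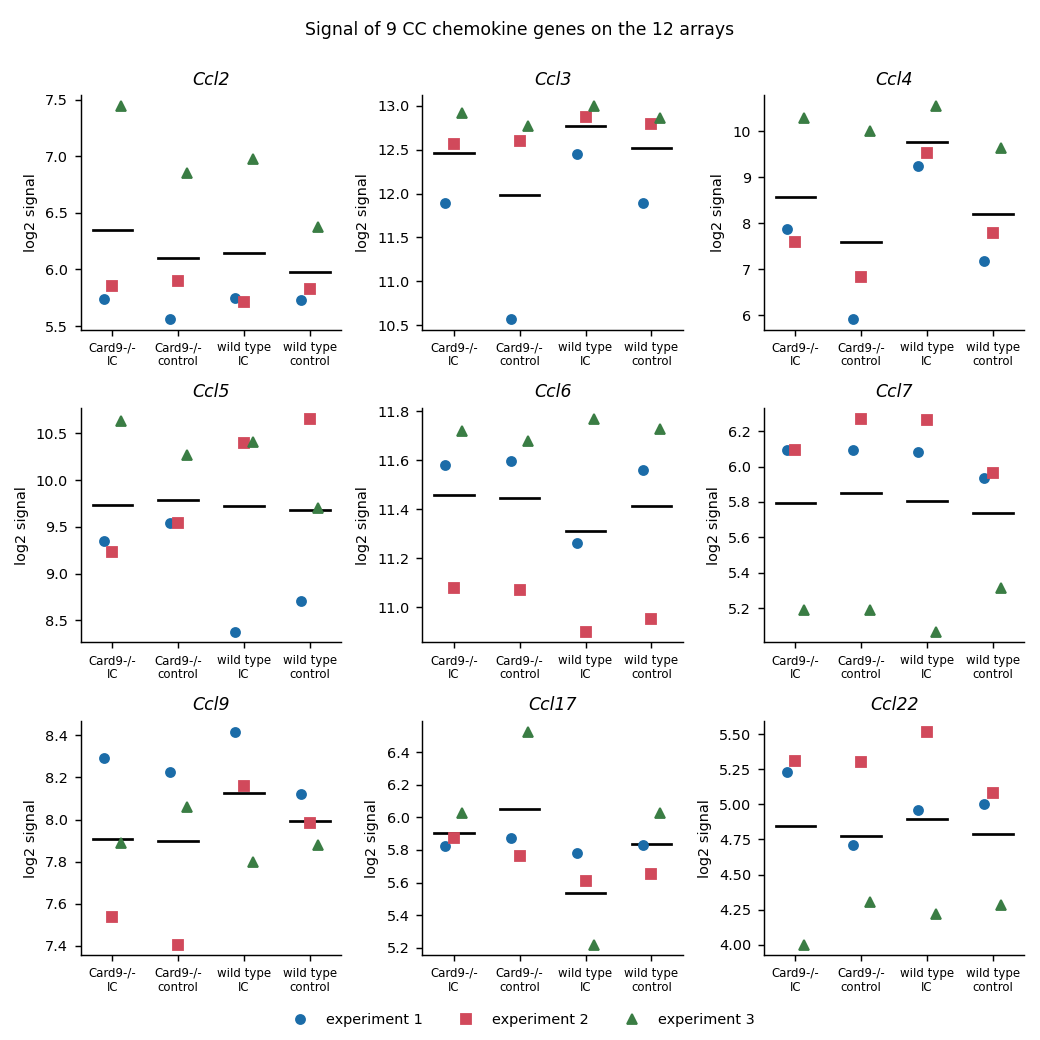
Log2 signal of each of the 9 CC chemokine genes (vertical axis, a scale of its own in each panel) in *Card9*-/- cells on IC, *Card9*-/- cells on the control surface, wild-type cells on IC and wild-type cells on the control surface; symbols are single arrays by experiment and bars are group means (n = 3). In *Ccl4*, the wild-type IC mean of 9.77 stands above the other 3 group means of 8.57, 7.59 and 8.20, and experiment 3 is the highest in every group.

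Among the inflammatory CC chemokines, *Ccl4*, which encodes MIP-1β, an attractant of monocytes and T cells, had the largest mean difference of the 9 genes in each of the 5 comparisons. On IC its signal was 7.86, 7.58 and 10.28 in *Card9*-/- cells and 9.25, 9.52 and 10.55 in wild-type cells in experiments 1, 2 and 3. On the control surface it was 5.92, 6.84 and 10.01 in *Card9*-/- cells and 7.18, 7.78 and 9.64 in wild-type cells. In both genotypes every experiment gave a higher signal on IC than on the control surface, and on IC the *Card9*-/- signal was below the wild-type signal in every experiment, but the groups overlapped in each comparison, and experiment 3 was high throughout (mean 10.12, against 7.55 and 7.93 in experiments 1 and 2).

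*Ccl4* averaged 8.57 ± 1.48 on IC and 7.59 ± 2.14 on the control surface in *Card9*-/- cells (SD, n = 3 each), and 9.77 ± 0.68 on IC and 8.20 ± 1.28 on the control surface in wild-type cells. Within experiments, the IC response (the log2 signal on IC minus that on control) was 1.95, 0.74 and 0.27 in *Card9*-/- cells and 2.07, 1.74 and 0.91 in wild-type cells. The mean response was 0.99 (1.98-fold, 95% confidence interval 0.13 to 1.84, unadjusted p = 0.027, adjusted p = 0.9998, limma) in *Card9*-/- cells. It was 1.57 (2.98-fold, 0.72 to 2.43, unadjusted p = 0.0018, adjusted p = 0.366) in wild-type cells. Neither passed the threshold of 0.05 on the adjusted p, and no cluster on the array did in either genotype (3.01% of all clusters in *Card9*-/- cells and 9.59% in wild-type cells had an unadjusted p below 0.05). The response was smaller in *Card9*-/- than in wild-type cells in each experiment (differences of -0.12, -0.998 and -0.64), with a mean difference of the responses of -0.59 whose interval of -1.80 to 0.62 includes 0 (unadjusted p = 0.310, adjusted p = 0.9992).

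Between the genotypes on IC, *Ccl4* differed by -1.39, -1.94 and -0.27 in the 3 experiments, with a mean of -1.20 (0.44-fold, 95% confidence interval -2.05 to -0.34, unadjusted p = 0.0103, adjusted p = 0.341, limma). This did not pass the threshold with all 3 experiments. Without experiment 3, in which the genotypes were closest, the mean was -1.66 and the adjusted p was 0.0496; without experiments 1 and 2 in turn the means were -1.11 and -0.83, with adjusted p of 0.854 and 0.793. On the control surface the differences were -1.26, -0.94 and 0.37, with a mean of -0.61 (unadjusted p = 0.144, adjusted p = 0.954), so that *Card9*-/- cells were below wild-type cells in experiments 1 and 2 and above them in experiment 3. Without experiment 3 the mean on the control surface was -1.10 (adjusted p = 0.568).

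Some markers of monocytes and macrophages moved with part of this pattern, and others did not. *Csf1r*, which encodes the M-CSF receptor, differed between *Card9*-/- and wild-type cells on IC by -1.06, -0.86 and -0.19, and *Adgre1*, which encodes F4/80, by -2.001, -0.94 and 0.17. In contrast, 2 of the 8 measured markers of this list had a mean difference above 0. They were *Ccr2* (0.09, 0.18 and 0.75 by experiment), at the 37.4th percentile of signal, and *F13a1*, at the 72.7th. The mean of *F13a1* on IC was 7.37 in *Card9*-/- cells and 7.18 in wild-type cells. The median difference of the 8 markers was -0.05, with medians of -0.26, -0.23 and 0.18 in experiments 1, 2 and 3. The 8 markers lay between the 21.8th (*Mrc1*) and the 94.2nd (*Cd68*) percentile of signal, with *Csf1r* at the 88.5th and *Adgre1* at the 91.5th. *Cd68*, *Adgre1* and *Csf1r*, the markers of the list with the highest percentiles, each had a mean difference below 0 on IC. On IC the average of the list was 7.30, 7.56 and 7.11 in *Card9*-/- cells and 7.78, 7.85 and 6.90 in wild-type cells. *Cd68*, a lysosomal marker of macrophages, differed between *Card9*-/- and wild-type cells by -0.43, -0.16 and -0.27 on IC and by -0.76, -0.21 and -0.25 on the control surface, below 0 in every experiment. Its IC response was above 0 in every experiment, as for *Ccl4*, at 0.53, 0.73 and 0.02 in *Card9*-/- cells and 0.20, 0.68 and 0.03 in wild-type cells, whereas that of *Adgre1* was -0.03, -0.57 and -0.39 in *Card9*-/- cells and 1.87, 0.11 and -0.47 in wild-type cells. The part of these markers in the *Ccl4* result was not tested.

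*Ccl3*, which encodes MIP-1α, a ligand of CCR1, lies next to *Ccl4* and had a signal close to the top of the scale, where the highest value of any cluster on an array was 13.42 to 13.78. On IC it was 11.89, 12.57 and 12.92 in *Card9*-/- cells and 12.45, 12.87 and 12.999 in wild-type cells. On the control surface it was 10.57, 12.60 and 12.77 in *Card9*-/- cells and 11.89, 12.80 and 12.87 in wild-type cells. The *Card9*-/- signal was the lower of the pair in all 3 experiments on both surfaces, and a single array, *Card9*-/- control of experiment 1, lay 1.32 below both the *Card9*-/- IC and the wild-type control array of that experiment.

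The IC response of *Ccl3* was 1.32, -0.03 and 0.15 in *Card9*-/- cells, with a mean of 0.48 (unadjusted p = 0.090, adjusted p = 0.9998, limma). In wild-type cells it was 0.57, 0.07 and 0.13, with a mean of 0.26 (adjusted p = 0.750). Most of both means came from experiment 1. The genotypes differed on IC by -0.31 (-0.56, -0.30 and -0.08 by experiment, adjusted p = 0.787) and on the control surface by -0.54 (-1.32, -0.20 and -0.09, unadjusted p = 0.062, adjusted p = 0.954).

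*Ccl5*, which encodes RANTES, a ligand of CCR1 and CCR3, varied most between experiments in wild-type cells. On IC it was 9.35, 9.23 and 10.64 in *Card9*-/- cells and 8.38, 10.40 and 10.41 in wild-type cells. On the control surface it was 9.54, 9.54 and 10.27 in *Card9*-/- cells and 8.70, 10.66 and 9.70 in wild-type cells. The genotype difference turned its sign with the experiment, at 0.97, -1.17 and 0.23 on IC and 0.84, -1.11 and 0.58 on the control surface, alike on both surfaces. Its means were 0.01 on IC (95% confidence interval -0.89 to 0.91) and 0.10 on the control surface (-0.80 to 1.00), intervals that leave room for differences of either sign. The averages of the 7 T and NK cell markers, cells that also make CCL5, were 5.65, 5.70 and 6.62 on IC and 5.71, 5.63 and 6.08 on the control surface in *Card9*-/- cells, and 5.56, 5.72 and 6.19 on IC and 5.55, 5.69 and 5.84 on the control surface in wild-type cells. In experiment 3 the 4 arrays had the same order in these averages as in *Ccl5*, and in experiment 1 both were higher in *Card9*-/- cells on both surfaces, while the wild-type *Ccl5* values of experiment 2 were high with averages of 5.72 and 5.69; the part of these markers in *Ccl5* was not tested. The IC response of *Ccl5* averaged -0.05 in *Card9*-/- cells and 0.04 in wild-type cells.

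*Ccl6* and *Ccl9*, whose products are CCR1 ligands of rodents that myeloid cells make without stimulation, spanned the smallest ranges among the 5 genes with the highest percentiles. *Ccl6* was 11.58, 11.08 and 11.72 on IC and 11.60, 11.07 and 11.68 on the control surface in *Card9*-/- cells. Wild-type cells had 11.26, 10.90 and 11.77 on IC and 11.56, 10.95 and 11.73 on the control surface. Within an experiment the 4 arrays lay close together, and experiment 2 was lowest in every group. The IC response was 0.01 (95% confidence interval -0.22 to 0.24) in *Card9*-/- cells and -0.10 (-0.33 to 0.13) in wild-type cells. The genotypes differed by 0.15 on IC (-0.08 to 0.38) and 0.04 on the control surface (-0.19 to 0.27).

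*Ccl9* was 8.29, 7.53 and 7.89 on IC and 8.23, 7.40 and 8.06 on the control surface in *Card9*-/- cells. Wild-type cells gave 8.42, 8.16 and 7.80 on IC and 8.12, 7.98 and 7.88 on the control surface. In experiment 2 the *Card9*-/- cells stood below the wild-type cells by -0.62 on IC and -0.58 on the control surface, while in the other experiments the genotypes differed by -0.12 to 0.18. The mean genotype difference was -0.22 on IC (-0.59 to 0.15) and -0.10 on the control surface (-0.47 to 0.28), and the IC response was 0.01 in *Card9*-/- cells and 0.13 in wild-type cells.

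**Figure D2:**
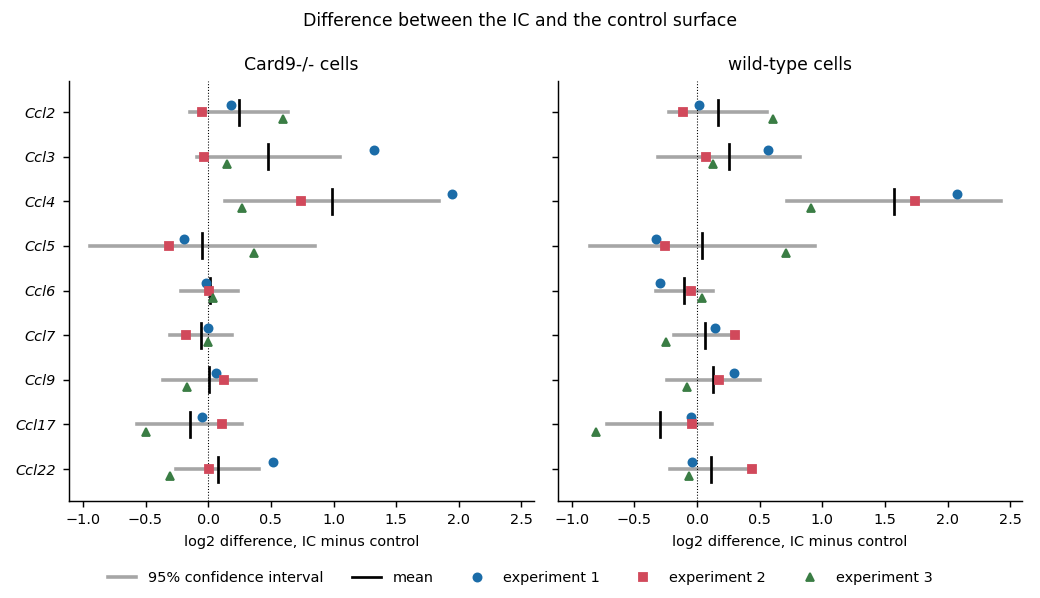
IC response as a log2 difference, IC minus control (horizontal axis), for each of the 9 genes, in *Card9*-/- cells (left) and wild-type cells (right); symbols are the 3 experiments, black bars their mean and grey bars the 95% confidence interval of the limma fit. *Ccl4* has the largest mean in both panels, 0.99 for *Card9*-/- cells and 1.57 for wild-type cells, and the intervals of the other 8 genes include 0.

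Of the ligands of CCR2, *Ccl2*, which encodes MCP-1, a main attractant of inflammatory monocytes, was 5.74, 5.85 and 7.45 on IC and 5.56, 5.90 and 6.85 on the control surface in *Card9*-/- cells. The wild-type values were 5.75, 5.71 and 6.98 on IC and 5.73, 5.83 and 6.37 on the control surface. In experiments 1 and 2 it stayed between 5.56 and 5.90, and only in experiment 3 did it exceed this range, in all 4 groups. In experiment 3 its IC response was 0.60 for *Card9*-/- and 0.61 for wild-type cells, compared with -0.12 to 0.18 in the other experiments. The mean response was 0.24 in *Card9*-/- cells (adjusted p = 0.9998, limma) and 0.17 in wild-type cells (adjusted p = 0.760). The genotypes differed by 0.20 on IC (95% confidence interval -0.19 to 0.59) and 0.13 on the control surface (-0.26 to 0.52).

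*Ccl7*, which encodes MCP-3 and neighbours *Ccl2*, was 6.09, 6.09 and 5.19 on IC and 6.09, 6.27 and 5.19 on the control surface in *Card9*-/- cells. Wild-type cells had 6.08, 6.26 and 5.07 on IC and 5.94, 5.96 and 5.31 on the control surface. Its low values all belonged to experiment 3, opposite to those of *Ccl2*. The IC response was -0.06 (95% confidence interval -0.31 to 0.19) in *Card9*-/- cells and 0.07 (-0.18 to 0.31) in wild-type cells. The genotypes differed by -0.01 on IC (-0.26 to 0.24) and 0.11 on the control surface (-0.14 to 0.36).

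Of the ligands of CCR4, *Ccl17*, which encodes TARC, an attractant of T helper cells, was 5.82, 5.87 and 6.03 on IC and 5.87, 5.76 and 6.52 on the control surface in *Card9*-/- cells. Wild-type cells gave 5.78, 5.61 and 5.22 on IC and 5.83, 5.65 and 6.03 on the control surface. On IC the genotypes did not overlap, the lowest *Card9*-/- value of 5.82 standing just above the highest wild-type value of 5.78; this held for 1 of the 9 genes, while 0.840% of all clusters were separated in this direction. The difference was 0.04, 0.26 and 0.81 by experiment, with a mean of 0.37 (95% confidence interval -0.05 to 0.79, unadjusted p = 0.078, adjusted p = 0.609, limma). On the control surface it was 0.05, 0.11 and 0.50, with a mean of 0.22 (adjusted p = 0.954). The IC response was -0.15 in *Card9*-/- cells (-0.05, 0.11 and -0.50) and -0.30 in wild-type cells (-0.05, -0.04 and -0.81), and experiment 3 supplied most of each of these means.

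*Ccl22*, which encodes MDC and is typical of macrophages and dendritic cells, had the lowest percentile of the 9 genes. It was 5.23, 5.31 and 4.00 on IC and 4.71, 5.30 and 4.30 on the control surface in *Card9*-/- cells. The wild-type values were 4.96, 5.52 and 4.22 on IC and 5.002, 5.08 and 4.28 on the control surface. As for *Ccl7*, the 4 arrays of experiment 3 were the lowest. The mean differences in all 4 pairwise comparisons lay between -0.05 and 0.11.

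**Figure D3:**
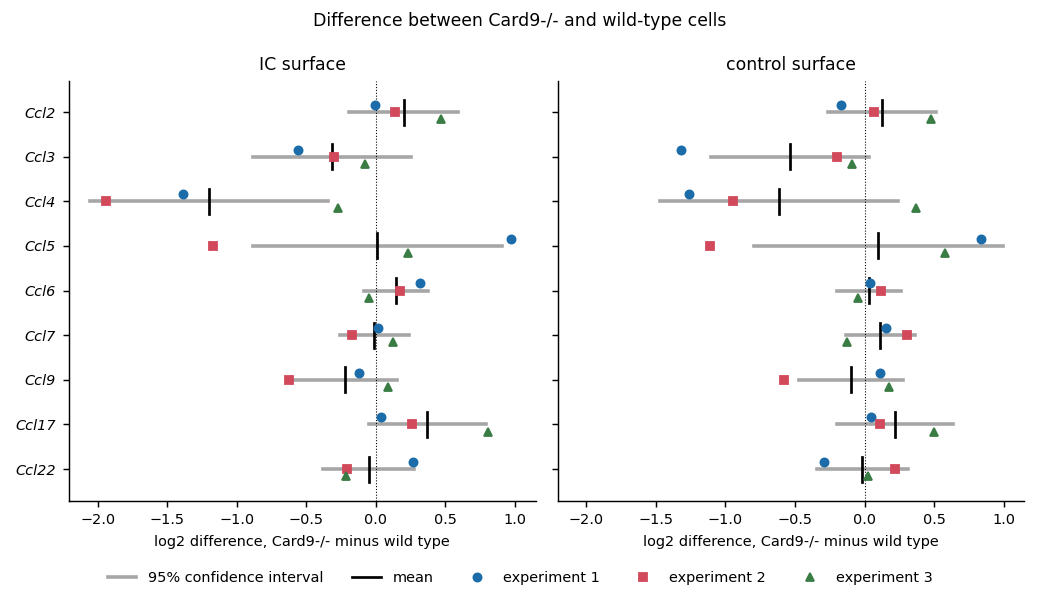
Genotype difference in log2 signal, *Card9*-/- minus wild type (horizontal axis), for each of the 9 genes, on the IC surface (left) and on the control surface (right); symbols are the 3 experiments, black bars their mean and grey bars the 95% confidence interval of the limma fit. *Ccl4* on IC, at -1.20, is the only mean whose interval excludes 0, and the 3 symbols of *Ccl5* lie on both sides of 0 in either panel.

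Counted over the 9 genes, 0 passed the adjusted threshold of 0.05 in any of the 5 comparisons (limma). Over all clusters, 0% passed it for IC against control in *Card9*-/- cells, 0% for IC against control in wild-type cells and 0% for the difference of these responses. For *Card9*-/- against wild-type cells it was 0.162% on IC and 0.0380% on the control surface. At an unadjusted p below 0.05, *Ccl4* alone was counted: higher on IC in *Card9*-/- cells (1 of 9, against 1.87% of all clusters in this direction), higher on IC in wild-type cells (1 of 9, against 5.18%) and lower in *Card9*-/- cells on IC (1 of 9, against 5.10%), with 0 of 9 for the difference of the responses (against 3.68%) and 0 of 9 for the genotypes on the control surface (against 4.64%). The median difference of the 9 genes was 0.01 for IC against control in *Card9*-/- cells, beside -0.01 over all clusters, and 0.11 in wild-type cells, beside 0.04. It was -0.01 for *Card9*-/- against wild-type cells on IC, beside -0.01 over all clusters, and 0.04 on the control surface, beside 0.03. Comparisons that share a group use the same arrays, so the 5 counts are not independent of each other.

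A direction held in all 3 experiments for few of the genes. For IC against control in *Card9*-/- cells it was upward in 1 of 9 (*Ccl4*), where 11.5% of all clusters did so. In wild-type cells it was upward in 2 of 9 (*Ccl3* and *Ccl4*, against 18.8%) and downward in 1 (*Ccl17*, against 12.3%). For *Card9*-/- against wild-type cells on IC it was downward in 2 of 9 (*Ccl3* and *Ccl4*, against 15.4%) and upward in 1 (*Ccl17*, against 13.5%), and on the control surface it was downward in 1 (*Ccl3*, against 12.8%) and upward in 1 (*Ccl17*, against 18.0%). The difference of the responses was below 0 in all 3 experiments for 2 of 9 (*Ccl4* and *Ccl9*, against 16.6%).

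The range of the 3 experiment means exceeded the range of the 4 group means in 8 of the 9 genes, a share close to the 92.4% of all clusters and so not particular to these genes. For *Ccl5* these ranges were 1.26 between experiments and 0.10 between groups, for *Ccl22* 1.10 and 0.13, for *Ccl7* 0.96 and 0.11, for *Ccl2* 1.22 and 0.37, and for *Ccl4* 2.57 and 2.19. *Ccl17* was the exception, with 0.23 between experiments and 0.52 between groups. After quantile normalization of the 12 arrays, which removes the lower median of experiment 3, *Ccl22* was 4.48 to 4.79 in experiment 3 and 4.62 to 5.28 in the others, against 4.00 to 4.30 and 4.71 to 5.52 as deposited, so that the separation of experiment 3 in this gene depended on the normalization. *Ccl2* then was still 6.59 to 7.65 in experiment 3 and 5.50 to 5.69 in the others. *Ccl7* was 5.36 to 5.69 in experiment 3 and 5.77 to 6.08 in the others, against 5.07 to 5.31 and 5.94 to 6.27 as deposited. Experiment 3 thus stayed lowest in *Ccl7*, but by a smaller margin.

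**Figure D4:**
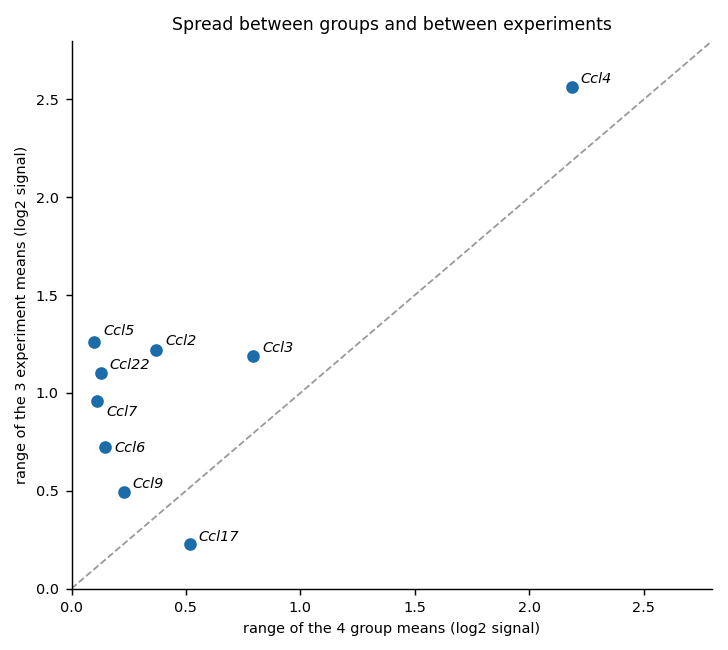
Range of the 3 experiment means (vertical axis, log2 signal) against the range of the 4 group means (horizontal axis, log2 signal) for each of the 9 genes; the dashed line marks equal ranges. *Ccl17* alone lies below the line, and *Ccl4* has the largest range on both axes, 2.57 between experiments and 2.19 between groups.

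After the mean of each experiment was subtracted, *Ccl3* and *Ccl4* had the most similar profiles of any pair of the 9 genes (Pearson r = 0.80 over 12 arrays, which share their experiments and groups, given as a description). *Ccl3* varied mainly in experiment 1, from 10.57 to 12.45. It was 12.57 to 12.87 in experiment 2 and 12.77 to 12.999 in experiment 3. All correlations of *Ccl3* given here thus rest largely on experiment 1. *Ccl6* ran opposite to *Ccl4* (r = -0.77) and to *Ccl9* (r = -0.69). Among single-gene clusters above the median signal, the profiles closest to *Ccl4* were those of *Dusp5*, a dual-specificity phosphatase gene (r = 0.97), *Basp1* (r = 0.97) and *Adtrp* (r = 0.96), and the closest to *Ccl3* were *Ifitm2* (r = 0.98), *Samsn1* (r = 0.92) and *Acod1*, which encodes the enzyme that makes itaconate (r = 0.91). *Ccl17* was closest to *Abce1*, *Canx* and *Phgdh* (r = 0.98 to 0.99), *Ccl2* to *Bag3* (r = 0.97), *Gatd3a* and *Smim8* (both r = 0.95), and *Ccl5* to *Sdc4* (r = 0.93), *Nsa2* (r = 0.92) and *Eif3h* (r = 0.91). *Ccl17* was 5.22 to 6.52 in experiment 3, against 5.78 to 5.87 in experiment 1 and 5.61 to 5.87 in experiment 2. *Ccl2* was 6.37 to 7.45 in experiment 3 and 5.56 to 5.90 in the others. The correlations of *Ccl17* and *Ccl2* thus rest largely on experiment 3. *Ccl6* was closest to *Snx30*, *Arrb2* and *Fam117b* (r = 0.94 to 0.95), *Ccl9* to *Ms4a6d*, *Asl* and *0610040B10Rik* (r = 0.93 to 0.95), *Ccl7* to *Ydjc*, *Gm16287* and *Slc2a4rg-ps* (r = 0.87 to 0.88), and *Ccl22* to *Hrct1*, *Sugp2* and *Fastk* (r = 0.84 to 0.91). These closest profiles are the highest r out of all single-gene clusters above the median signal. The r that such a choice gives for an unrelated profile was not determined.

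Of the other CC chemokines, 10 of 12 had a cluster of their own, and 14 CC chemokine receptors, atypical ones included, were read in the same way. In each of the 5 comparisons 0 of the 10 and 0 of the 14 passed the adjusted threshold (limma). At an unadjusted p below 0.05, the chemokines and receptors counted were 1 of 10 and 1 of 14 for IC against control in *Card9*-/- cells (3.01% of all clusters), 0 and 2 in wild-type cells (9.59%), 1 and 0 for the difference of the responses (3.68%), 1 and 4 for *Card9*-/- against wild-type cells on IC (9.13%), and 0 and 2 on the control surface (4.64%). *Ccl11*, which encodes eotaxin, had an IC response of -0.29 (unadjusted p = 0.0499) in *Card9*-/- cells and of 0.14 in wild-type cells, with a difference of the responses of -0.43 (unadjusted p = 0.043, adjusted p = 0.9992). *Ccl28* differed between *Card9*-/- and wild-type cells on IC by -0.21 (unadjusted p = 0.043, adjusted p = 0.529). The mean signal of *Ccl11* was at the 50.4th percentile of all clusters and that of *Ccl28* at the 22.8th.

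*Ccrl2*, which encodes an atypical receptor that binds chemerin, had a profile correlated with those of *Ccl4* and *Ccl3* (r = 0.83 and 0.82 over 12 arrays). The value for *Ccl3* rests largely on experiment 1. The rank of *Ccrl2* among the genes of these lists was not determined. On IC *Ccrl2* was 7.71, 9.12 and 10.16 in *Card9*-/- cells and 10.84, 10.92 and 11.34 in wild-type cells. On the control surface it was 6.40, 8.60 and 8.81 in *Card9*-/- cells and 9.18, 9.96 and 9.81 in wild-type cells. The genotypes did not overlap on either surface, as in 1.03% of all clusters on IC and 0.795% on the control surface in this direction. The differences were -2.04 on IC (adjusted p = 0.0695, limma) and -1.71 on the control surface (adjusted p = 0.403), and the one on IC passed the threshold with the experiment as a random block (adjusted p = 0.0204) and with only the arrays compared (adjusted p = 0.0402). Under the other alternatives its adjusted p was 0.058 to 0.99998, the highest without a block and in the factorial test, with 0.158 for robust eBayes and 0.536 without experiment 2. Its mean response to IC was 1.06 in *Card9*-/- cells and 1.39 in wild-type cells.

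*Ccr1*, the receptor for *Ccl3*, *Ccl5*, *Ccl6* and *Ccl9* products, was at the 92.5th percentile of signal, with group means of 9.80 ± 0.43 on IC and 9.57 ± 0.31 on the control surface in *Card9*-/- cells and 9.67 ± 0.41 on IC and 9.82 ± 0.47 on the control surface in wild-type cells (SD, n = 3 each). *Ccr3*, the eotaxin receptor of eosinophils, had a higher signal in *Card9*-/- than in wild-type cells in all 3 experiments, with differences of 0.82 on IC (unadjusted p = 0.0071, adjusted p = 0.296) and 0.80 on the control surface (unadjusted p = 0.0080, adjusted p = 0.954). *Ccr3* is also 1 of the 9 markers of eosinophils, basophils and mast cells. In experiments 1, 2 and 3 the average of these markers in *Card9*-/- cells was 7.35, 7.30 and 8.33 on IC and 7.42, 7.42 and 8.42 on the control surface. In wild-type cells the average was 7.46, 6.89 and 7.23 on IC and 7.66, 7.11 and 7.35 on the control surface. On both surfaces the average was thus lower in *Card9*-/- cells in experiment 1, unlike *Ccr3*, and higher in experiments 2 and 3. The part of these markers in the *Ccr3* values was not tested. *Ccr2*, which is also a monocyte marker, differed between *Card9*-/- and wild-type cells on IC by 0.34 (unadjusted p = 0.042, adjusted p = 0.526), and *Ccr8* had an IC response of -0.05 in *Card9*-/- cells and -0.39 in wild-type cells (unadjusted p = 0.0121, adjusted p = 0.438). Both had low signals, *Ccr2* at the 37.4th and *Ccr8* at the 17.5th percentile of all clusters.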

How the data were processed

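The authors deposited log2 signals per transcript cluster for 12 arrays; how these were summarized, corrected for background and normalized is not given here. Of the 35556 rows, 6612 lie outside the range of annotated identifiers, were taken as controls and left out. The other 28944 clusters entered a limma fit (version 3.58.1, R 4.3.3) unfiltered and as deposited, with the 4 groups and the experiment as a fixed block (lmFit, then eBayes; 6 residual and 5.40 prior degrees of freedom). P values are two-sided, and adjusted p values are Benjamini-Hochberg over all clusters of a comparison at a threshold of 0.05. The experiment numbers come from the labels, and deviations from group means correlated at 0.67 to 0.87 for the same number and at -0.80 to 0.36 for different numbers.

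The 9 genes and all lists were chosen with earlier results of these data known. Genes named are these 9, *Card9*, from each of the other chemokine and receptor lists the 3 with the smallest p per comparison (printed where the unadjusted p was below 0.05), and the 3 closest profiles per gene. *Csf1r*, *Adgre1*, *Cd68*, *F13a1*, *Mrc1* and *Ccr1* were named after their values were seen. The number of arrays limits the precision. The procedure was tested on simulated data. Promoter windows were from RefSeq. Alternatives were a fit with no block, a random block, quantile normalization, median centring, clusters above the median signal, limma-trend, robust eBayes, the arrays compared alone, an unmoderated factorial test, and each experiment left out in turn. Profiles were compared with pandas 2.3.3 and numpy 2.4.6 (Python 3.11.15), and figures drawn with matplotlib 3.10.9.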

Additional observations from a re-analysis of the deposited data

How the results depend on the processing

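With 3 experiments, the standard error of a log2 difference between 2 groups was 0.10 (*Ccl6*) to 0.41 (*Ccl5*), which limits what could be detected. The count of genes past the threshold was 0 under each alternative and comparison except 1 setting. *Ccl22*, at the 32.4th percentile, was not tested where only clusters above the median signal were kept. Without experiment 3 the count was 1 of 9 (*Ccl4*) for *Card9*-/- against wild-type cells on IC, and leaving out each experiment in turn gave 0 to 1 there. Without a replicate block the counts were 0 in all 5 comparisons, and *Card9* on IC had an adjusted p of 0.0777; in the factorial test its adjusted p was 0.567 on IC and 0.256 on the control surface. Over all clusters, the count for the genotypes on IC was 47 (27.7% of them higher in *Card9*-/- cells), against 0 without a block, 0 in the factorial test, 105 (19.0% higher) with a random block, 44 (11.4% higher) after quantile normalization, 22 (13.6% higher) after median centring, 34 (11.8% higher) with limma-trend, 173 (41.6% higher) with the arrays compared alone, and 76 (68.4% higher), 3 (33.3% higher) and 116 (10.3% higher) without experiments 1, 2 and 3, so that most calls were higher in *Card9*-/- cells without experiment 1 and lower in the other settings with calls. For the genotypes on the control surface it was 11, against 1 without a block, 0 in the factorial test, 7 with the arrays compared alone, 6 with robust eBayes and 2 to 7 without each experiment. For the IC response of wild-type cells it was 0, against 7 (100% higher on IC) with a random block. Without experiments 1, 2 and 3 in turn it was 51 (1.96% higher), 1 (100% higher) and 8 (100% higher). Most of these calls were thus lower on IC without experiment 1, and all were higher in the other settings with calls. The use of other clusters of a gene could not be run, since each of the 9 genes has 1 cluster. The signs below turned for differences that passed no threshold, and the cause was not tested. After quantile normalization the values were -0.030 for *Ccl6* and 0.0017 for *Card9* in the IC response of *Card9*-/- cells, 0.041 for *Ccl22* and -0.011 for *Ccr3* in the difference of the responses, -0.054 for *Ccl5* in the genotypes on IC and -0.022 for *Ccr2* in the genotypes on the control surface. After centring each array on its median they were 0.0024 for *Ccl28* and 0.0030 for *Card9* in the IC response of *Card9*-/- cells, -0.012 for *Ccl5* in the IC response of wild-type cells, 0.039 for *Ccl22* in the difference of the responses, 0.011 for *Ccl7* in the genotypes on IC and -0.019 for *Ccl6* and -0.0038 for *Ccr2* in the genotypes on the control surface. Leaving out each experiment in turn turned the sign of some differences, given as their lowest to highest value. In the IC response of *Card9*-/- cells they were -0.25 to 0.086 for *Ccl5*, -0.052 to 0.098 for *Ccl9*, -0.15 to 0.26 for *Ccl22*, -0.087 to 0.00077 for *Ccl7*, -0.0034 to 0.025 for *Ccl6*, -0.28 to 0.030 for *Ccl17*, -0.037 to 0.016 for *Ccl28*, -0.37 to 0.040 for *Ccr3*, -0.10 to 0.046 for *Ccr8* and -0.060 to 0.045 for *Card9*. In the IC response of wild-type cells they were -0.12 to 0.032 for *Ccr2*, -0.051 to 0.22 for *Ccl7*, -0.052 to 0.20 for *Ccl22*, -0.050 to 0.31 for *Ccl2* and -0.29 to 0.23 for *Ccl5*. In the difference of the responses they were -0.043 to 0.39 for *Ccl3*, -0.095 to 0.11 for *Ccr3*, -0.31 to 0.052 for *Ccl7*, -0.33 to 0.16 for *Ccl22* and -0.20 to 0.039 for *Ccl5*. Between the genotypes on IC they were -0.47 to 0.60 for *Ccl5*, -0.078 to 0.068 for *Ccl7* and -0.21 to 0.030 for *Ccl22*. Between the genotypes on the control surface they were -0.27 to 0.71 for *Ccl5*, -0.13 to 0.12 for *Ccl22*, -0.0060 to 0.077 for *Ccl6*, -0.24 to 0.14 for *Ccl9*, -0.050 to 0.27 for *Ccl2* and -0.10 to 0.16 for *Ccr2*.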
